A study of Homo sapiens with 21 samples.

Results

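Desmosomes are the spot-like junctions that hold neighbouring epithelial cells together and anchor their membranes to keratin filaments. Desmogleins and desmocollins, which are cadherins, span the gap between the cells. Plakoglobin and the plakophilins, which are armadillo proteins, bind the cadherin tails on the inside, and desmoplakin joins this plaque to keratin. Periplakin and envoplakin are relatives of desmoplakin in the plakin family. They sit at desmosomes and under the membrane, where they form part of the scaffold of the cornified envelope in stratified epithelia. The transcripts of 10 such genes were followed here: DSP, DSG2, DSC2, DSC3, PKP1, PKP2, PKP3, JUP, PPL and EVPL. They were chosen by name for what they encode, out of 53515 genes counted, and all 10 were found in every library by their Ensembl identifiers.

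RNA-seq was performed on 7 drug-sensitive, parental human cancer cell lines and 10 lines derived from them that resist a drug. HepG2, a liver cancer line, gave HepG2S1 and HepG2S3, which resist the kinase inhibitor sorafenib, and the pancreatic cancer line PancVB gave PancB1Q and PancB1V, which resist the antimetabolite 5-fluorouracil. Among the lung adenocarcinoma lines, HCC4006P1 gave the erlotinib-resistant HCC4006ER, HCC4006P2 the gefitinib-resistant HCC4006GR, and HCC827P the gefitinib-resistant HCC827GR, both drugs being inhibitors of the EGF receptor kinase. Among the ovarian cancer lines, UWB1.289 gave U10 and U100, which resist the PARP inhibitor olaparib, and IGROV-1 gave IGROV-1/CDDP, which resists cisplatin. The labels give no dose, time or genotype, and the study describes resistance raised over months by growing doses. Each line is 1 cell population of its own history, so differences between a resistant line and its parent other than resistance cannot be told apart from it. The HepG2 lines were grown in another medium (William's E) than all the others, but each pair shares its medium.

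There were 2 libraries each of HepG2 and HepG2S3, as well as of HCC4006P1 and HCC4006ER. The other 13 lines had 1, so 8 of the 10 pairs have a line with no replicate. The 21 libraries held 9851195 to 36639473 reads counted on genes, with medians of 19498932 in 9 parental and 19617483 in 12 resistant libraries. Levels are given as CPM, the count of a gene scaled to 1000000 counts on genes in its library. A count of 3 was taken as the floor of detection, which corresponds to 0.0819 to 0.305 CPM in a library. Nothing says that replicate libraries came from separate cultures, so their spread may be technical.

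Several libraries stood apart before any member was examined. HCC4006P1 replicate 1 had no counts for any of 1679 genes past a point on chromosome 7 in the table's order, all with 50 or more counts in replicate 2. The genes past it take 18.1% of the counts of HCC4006P1 replicate 2, and their loss raises every CPM of replicate 1 by 22.1%. No member lies in that stretch. The liver markers ALB, APOA1, AFP, TTR and APOB summed to 29382 CPM in HepG2. In HepG2S1 all 5 had 3 counts or fewer (0.305 CPM in all), and in HepG2S3 they summed to 26.4 CPM, with 3 of the 5 at 1 CPM or more. The fibroblast genes DCN, LUM and PDGFRA moved the other way. They summed to 0.314 CPM in HepG2, 534 in HepG2S1 and 381 in HepG2S3, with 2 of 3 at 1 CPM or more in both resistant lines and PDGFRA at 2 counts or fewer per library. They summed to 0.157 CPM in HCC4006P1 and 131 in HCC4006ER, with 3 of 3 at 1 CPM or more, and to at most 5.78 CPM in every other line. The epithelial duct genes KRT7, MUC1, PDX1, GATA6 and TFF1, listed as pancreatic markers, also moved in these pairs. They summed to 15.5 CPM in HepG2, 2864 in HepG2S1 and 2941 in HepG2S3, to 2401 CPM in HCC4006P1 and 202 in HCC4006ER, and for the IGROV-1 pair to 234 CPM in the parent and 29.9 in the resistant line, with PDX1 at 3 counts or fewer in all of these but HCC4006ER. In PancVB they summed to 2552 CPM, above PancB1Q (1060) and PancB1V (880). The leukocyte genes PTPRC, CD74 and LCP1 summed to 126 CPM in HepG2 and to 0.812 and 0.177 in HepG2S1 and HepG2S3, with PTPRC at 3 counts or fewer in all 3. The lung markers NKX2-1, NAPSA, SFTPB and SFTA2 summed to 2.76 CPM in HCC4006P1 and 3.11 in HCC4006ER, with NKX2-1 at 3 counts or fewer. In HCC4006P2 they summed to 276 CPM and in HCC4006GR to 24.2. For the lung markers HCC827P held 119 CPM and HCC827GR 29.1. In the same 2 lines the leukocyte genes summed to 498 and 39.2 CPM and the duct genes to 1259 and 512. The ovary markers PAX8, WT1 and MUC16 summed to 642 CPM in HCC827P and 274 in HCC827GR. The sums of the fibroblast genes (0.0577 and 1.93 CPM) and of the liver markers (0.115 and 4.63 CPM) were higher in HCC827GR. There DCN, LUM, ALB, APOA1, TTR and APOB had 3 counts or fewer, so these sums came mostly from PDGFRA and AFP. WT1, PTPRC and PDX1 had 3 counts or fewer in both HCC827 lines. The part of these marker differences in the results below was not tested. In such bulk libraries, fewer cells of a kind and less RNA per cell cannot be told apart.

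Desmosomal transcripts were found in all 17 lines, and per kilobase of exon the most abundant were those of DSG2, JUP and DSP. Their medians over the 17 lines were 36.1, 37.3 and 35.1 CPM per kb. PKP3 and PPL followed at 15.9 and 15.8 CPM per kb, then PKP2 at 6.19, EVPL at 4.44, DSC2 at 3.51, DSC3 at 0.335 and PKP1 at 0.0191 CPM per kb. DSP, DSG2, PKP2, PKP3, JUP and PPL were at 1 CPM or more in all 17 lines. DSC2 was at this level in 15 lines, EVPL in 14, DSC3 in 12 and PKP1 in only 3. The median levels of parental and resistant lines differed little for JUP (181 against 192 CPM) and PPL (119.9 against 126 CPM), while those of DSP (286 against 518 CPM) and DSC2 (60.5 against 17.8 CPM) lay further apart, and the lines of both groups spread widely for all 4. These differences were not tested. The medians do not set a line against its own parent, and some parents have more than 1 resistant line. Within the 10 pairs DSP was lower in the resistant line in 6 and higher in 4, and so was DSC2. For DSP the pairs thus went more often against the direction of the group medians.

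**Figure D1:**
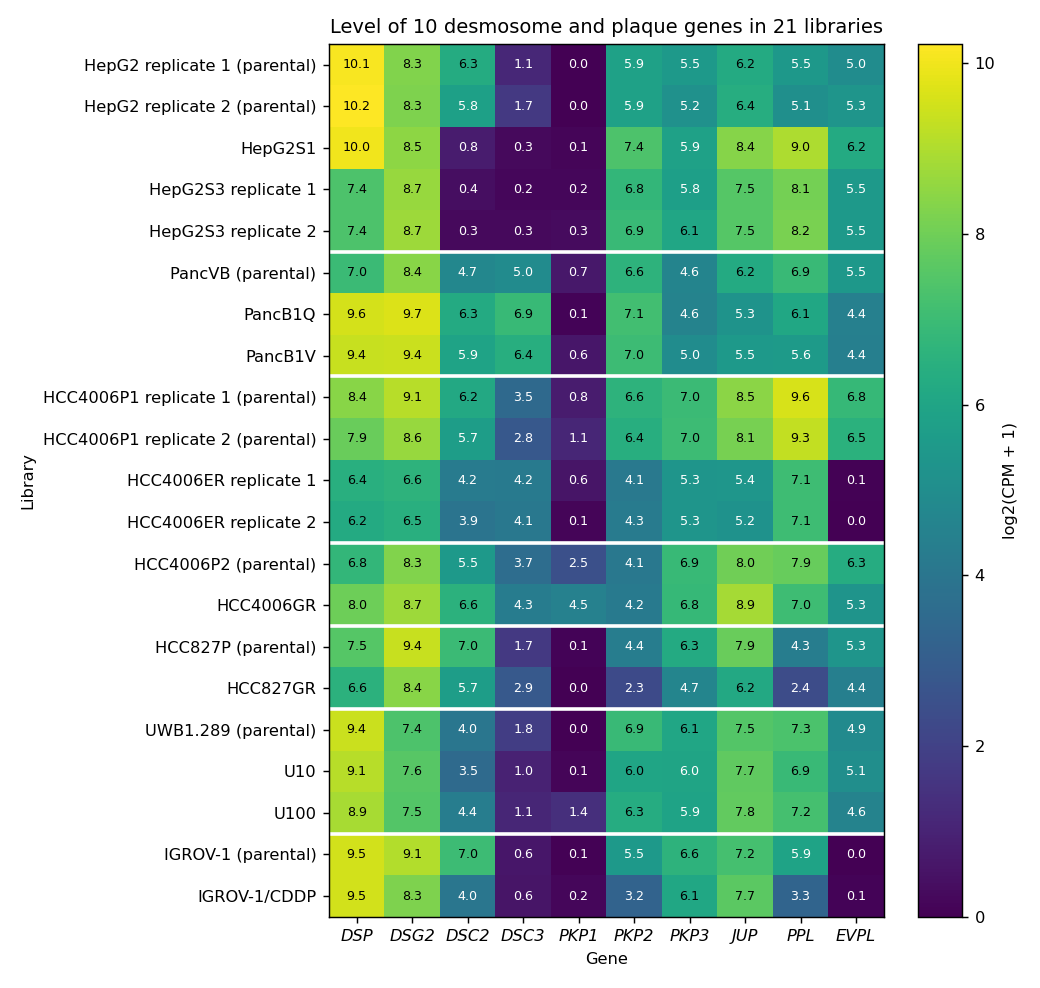
Level of each of the 10 genes (columns) in each of the 21 libraries (rows), as log2(CPM + 1) in colour and digits, with white lines between the families of lines that share a parent. DSP and DSG2 are high throughout, PKP1 is below 2 outside HCC4006P2 and HCC4006GR, and EVPL is near 0 in HCC4006ER, IGROV-1 and IGROV-1/CDDP.

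No single direction described the desmosome in the resistant lines. The change of a gene is given as the log2 fold change, log2(CPM + 1) of the resistant line minus that of its parent, with a 95% interval from Wilson intervals of the counts that covers counting error only. Of the 100 values of 10 genes in 10 pairs, 47 were lower in the resistant line beyond this interval, 39 were higher and 9 were within it. In the other 5 both lines were at or under 3 counts. The same interval was passed by many genes at these depths, since over the 10 pairs 29.5% of all values of genes with more than 3 counts in either line were lower and 30.4% higher. In HCC4006ER 9 genes were lower and 1 higher, where 34.0% of all such genes were lower and 31.2% higher. In HCC827GR 8 were lower and 1 higher, against 26.6% and 31.1% of all. More genes were higher than lower in HepG2S1 (3 lower and 6 higher, against 25.7% and 39.9% of all) and in HepG2S3 (3 and 7, against 30.8% and 44.2%). The same held for PancB1Q (4 and 5, against 39.4% and 24.4%), PancB1V (3 and 6, against 30.9% and 29.2%) and HCC4006GR (2 and 6, against 30.4% and 23.0%). More were lower in U10 (5 and 2, against 26.3% and 25.4%), U100 (5 and 4, against 19.3% and 27.9%) and IGROV-1/CDDP (5 and 1, against 30.6% and 25.4%). PPL was the gene most often lower, in 8 of 10 pairs, and DSG2 the one most often higher, in 7. Against these changes, the median of all expressed genes (1 CPM or more in either line) was 0.25 for HepG2S1, 0.28 for HepG2S3 and -0.12 for PancB1Q. For the other 7 pairs it lay between -0.08 and 0.07. Scaling the libraries by TMM, a method that centres the bulk of the genes, moved these 3 medians to -0.09, -0.00 and 0.06.

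**Figure D2:**
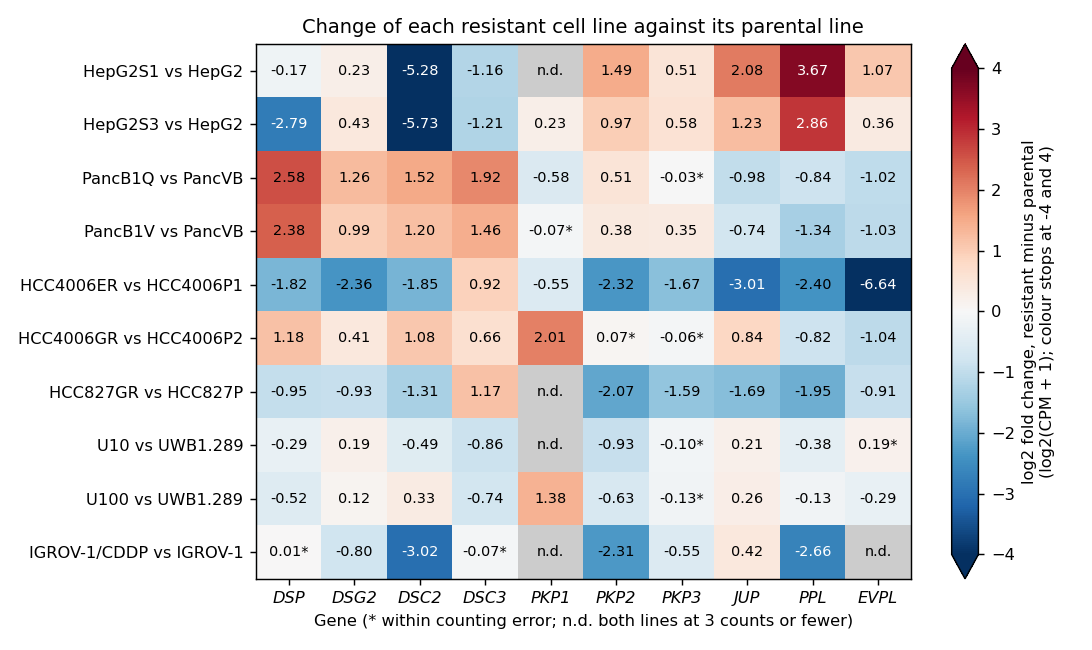
Log2 fold change of each gene (columns) in each resistant line against its parent (rows), as digits and colour, blue for lower and red for higher in the resistant line. HCC4006ER and HCC827GR are blue in every detected gene but DSC3, HepG2S1 and HepG2S3 pair much lower DSC2 with higher PPL, and the PancVB derivatives are red for DSP, DSG2, DSC2 and DSC3 and blue for JUP, PPL and EVPL.

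Among the cadherins, DSG2, the desmoglein of simple epithelia and the only desmoglein among the members, was the steadiest. DSG2 (ENSG00000046604, chr18:29078140-29128971, plus strand) ranged from 92.0 CPM in HCC4006ER to 814 CPM in PancB1Q. Its 2 HCC4006P1 libraries held 555 and 395 CPM and those of HCC4006ER 97.1 and 86.8, a 5.16-fold lower level. It was 1.91-fold lower in HCC827GR (342 against 655 CPM) and 1.74-fold lower in IGROV-1/CDDP (307 against 535 CPM). These were the 3 pairs with less DSG2 in the resistant line. In PancB1Q it reached 814 and in PancB1V 671 CPM, against 338 in PancVB. The other 5 values were at most 0.43 on the log2 scale, and that of HepG2S1 (0.23) turned to -0.14 with TMM scaling.

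DSC2, the desmocollin found most widely in epithelia, had the largest differences of the cadherins. DSC2 (ENSG00000134755, chr18:28638806-28682485, minus strand) was at 76.4 and 54.5 CPM in the HepG2 libraries, at 0.711 CPM (7 counts) in HepG2S1 and at 0.312 and 0.196 CPM (10 and 6 counts) in HepG2S3. The level was thus 92.1-fold lower in HepG2S1 and 257-fold lower in HepG2S3, and no resistant library came near a parental one. It went from 129 CPM in IGROV-1 to 15.0 in IGROV-1/CDDP (log2 fold change -3.02, counting interval -3.16 to -2.88). The HCC4006P1 libraries held 70.9 and 50.1 CPM, and both HCC4006ER libraries were lower at 17.9 and 14.3. In HCC827GR DSC2 was at 50.2 CPM against 126 in HCC827P. The opposite was seen in PancB1Q (75.7 CPM), PancB1V (60.6) and HCC4006GR (94.1), against 25.8 CPM in PancVB and 43.9 in HCC4006P2. In the UWB1.289 family DSC2 stayed low, at 15.2 CPM in the parent, 10.5 in U10 and 19.5 in U100.

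DSC3, the desmocollin of the basal layers of stratified epithelia, lies beside DSC2 on chromosome 18 but did not follow it everywhere. DSC3 (ENSG00000134762, chr18:28569331-28622781, minus strand) was highest in the pancreatic lines, at 29.9 CPM in PancVB, 116 in PancB1Q and 84.3 in PancB1V, which is 3.88-fold and 2.82-fold above the parent. It was the only detected member that was higher in HCC827GR, at 6.30 CPM (98 counts) against 2.25 CPM (39 counts) in HCC827P, and the only one higher in HCC4006ER. There its libraries held 16.8 and 15.9 CPM, above both HCC4006P1 libraries at 10.4 and 6.05. In HCC4006GR it was at 18.9 CPM against 11.6 in HCC4006P2. HepG2 held little DSC3 (1.17 and 2.21 CPM), HepG2S1 had 2 counts against 120 in the HepG2 libraries, an 8.27-fold lower level (exact interval 2.24 to 69.1), and HepG2S3 had 4 and 6 counts. In UWB1.289 DSC3 was at 2.58 CPM, with 0.975 in U10 and 1.14 in U100. IGROV-1 and IGROV-1/CDDP had 15 and 12 counts, a difference within counting error.

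The balance between the desmocollins therefore differed between lines. DSC3 made up 18.0% of the desmocollin transcripts per kilobase in HCC4006P1 (95% Wilson interval 16.4 to 19.9%) and 62.3% in HCC4006ER (95% Wilson interval 59.7 to 64.8%). The 2 libraries of each line lay at 16.4 and 19.2% and at 60.5 and 64.3%, without overlap. In HCC827P the share was 2.82% and in HCC827GR 16.9%. It was 65.3% in PancVB and close to that in PancB1Q (71.3%) and PancB1V (69.3%), so in these lines DSC2 and DSC3 were higher together. In HepG2S1 and HepG2S3 the shares of 31.7% and 50.4% rest on 9 and 26 counts of both genes and their intervals reach from 9.88 to 66.3% and from 31.9 to 68.7%. DSC3 passed 50% in 5 of 17 lines, and in 4 when gene length was left out of the calculation.

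The start regions of the cadherins and of desmoplakin are shown because DSC2 and DSC3 are neighbours that parted in several pairs, while DSG2 and DSP were abundant in every line. Each window spans 250 bases before and 50 after the transcription start site given by RefSeq, 5′ to 3′ on the strand of the gene, and matched GRCh37 at 1 place. The windows lie at chr18:29077890-29078189 (plus strand, DSG2), chr18:28682335-28682634 (minus strand, DSC2), chr18:28622659-28622958 (minus strand, DSC3) and chr6:7541654-7541953 (plus strand, DSP). Capitals mark CACCTG on either strand, the E-box letters that SNAI and ZEB repressors are known to bind.
DSG2: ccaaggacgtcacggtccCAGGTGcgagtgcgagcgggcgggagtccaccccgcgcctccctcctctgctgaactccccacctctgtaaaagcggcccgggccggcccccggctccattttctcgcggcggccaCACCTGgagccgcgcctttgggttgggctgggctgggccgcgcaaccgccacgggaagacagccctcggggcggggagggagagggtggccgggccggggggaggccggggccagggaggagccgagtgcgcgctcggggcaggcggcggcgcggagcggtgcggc
DSC2: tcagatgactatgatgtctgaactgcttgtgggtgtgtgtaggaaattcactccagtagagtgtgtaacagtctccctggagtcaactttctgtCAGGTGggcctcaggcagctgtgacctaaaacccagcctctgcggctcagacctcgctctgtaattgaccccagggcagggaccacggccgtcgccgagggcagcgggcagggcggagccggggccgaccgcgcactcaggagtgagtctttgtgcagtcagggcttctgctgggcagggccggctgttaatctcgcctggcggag
DSC3: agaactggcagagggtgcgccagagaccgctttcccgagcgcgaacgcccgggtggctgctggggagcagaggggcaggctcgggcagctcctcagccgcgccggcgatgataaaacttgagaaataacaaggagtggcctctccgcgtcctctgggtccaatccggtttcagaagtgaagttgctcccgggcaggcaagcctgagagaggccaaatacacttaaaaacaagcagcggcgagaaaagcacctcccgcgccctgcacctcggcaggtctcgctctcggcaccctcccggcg
DSP: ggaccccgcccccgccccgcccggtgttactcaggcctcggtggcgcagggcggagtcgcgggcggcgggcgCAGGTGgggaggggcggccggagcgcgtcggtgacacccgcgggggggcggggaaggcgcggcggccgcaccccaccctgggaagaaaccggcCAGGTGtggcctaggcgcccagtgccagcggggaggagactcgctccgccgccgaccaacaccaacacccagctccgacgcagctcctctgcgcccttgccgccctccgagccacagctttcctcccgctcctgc
CACCTG or its reverse complement occurred at 2 places in the DSP window (178 and 85 bases before the start site), at 2 in that of DSG2 (232 and 116 bases before) and at 1 in that of DSC2 (156 bases before). It was not in the windows of DSC3, PKP1 and JUP. These 6 were the members with a window in the table, PKP2, PKP3, PPL and EVPL having no entry. Among all 35116 RefSeq windows of this length, 20.6% held these letters. AACCNGTT, the letters bound by GRHL factors, was in none of the 6 windows and in 1.73% of all. The windows of DSP and DSG2 held 37 and 36 CG pairs, DSC3 25, JUP 23, PKP1 19 and DSC2 15, where the quartiles over all windows were 4, 14 and 28. Matches of letters describe the sequence only.

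Plakoglobin, encoded by JUP (ENSG00000173801, chr17:39910856-39943183, minus strand), is the armadillo protein that desmosomes share with adherens junctions. Its transcript was 8.24-fold lower in HCC4006ER, with 40.7 and 35.6 CPM in its libraries against 351 and 278 in those of HCC4006P1. It was 3.26-fold lower in HCC827GR (71.5 against 233 CPM). It was lower by less in PancB1Q (37.1 CPM) and PancB1V (44.2), against 74.3 in PancVB. In the liver lines JUP went the other way. It was at 74.3 and 81.1 CPM in HepG2, 333 in HepG2S1 and 186 and 182 in HepG2S3. HCC4006GR had the highest level of all lines, 466 CPM against 259.9 in HCC4006P2. In the ovarian pairs JUP was a little higher in all 3 resistant lines, with log2 fold changes of 0.21, 0.26 and 0.42 for U10, U100 and IGROV-1/CDDP.

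PKP2 (ENSG00000057294, chr12:32943679-33049732, minus strand), a plakophilin found in simple epithelia and heart among other tissues, was lower in 5 resistant lines and higher in 4. It fell to 16.5 and 18.1 CPM in HCC4006ER from 95.7 and 84.4 in HCC4006P1, a 5.21-fold difference. It was 5.43-fold lower in IGROV-1/CDDP (8.43 against 45.7 CPM) and 5.04-fold lower in HCC827GR (3.86 against 19.4 CPM, 60 against 337 counts). The olaparib-resistant lines were also lower, U10 at 63.7 and U100 at 78.6 CPM against 122 in UWB1.289. In the liver lines HepG2S1 held 163 CPM and HepG2S3 107 and 119.8, both above HepG2 at 57.3 and 57.5. PancB1Q (139 CPM) and PancB1V (127) were somewhat above PancVB (97.5). In HCC4006GR the change was within counting error (0.07).

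PKP3 (ENSG00000184363, chr11:392614-404908, plus strand) was the member with the lowest ratio of the highest to the lowest line, with levels from 23.0 to 127 CPM. It also had the most changes within counting error (4 of 10). It differed by 1 or more on the log2 scale in the lung lines HCC4006ER, with 38.8 and 39.7 CPM against 125 and 129, and HCC827GR, with 24.4 against 75.4 CPM. PKP1 (ENSG00000081277, chr1:201252580-201302121, plus strand), which marks the upper layers of stratified epithelia, was at or under 3 counts in 9 lines. It was measurable in HCC4006GR at 21.6 CPM (327 counts), 4.68-fold above HCC4006P2 (4.63 CPM, 63 counts). U100 held 21 counts and UWB1.289 none, so U100 was at least 6.21-fold higher against a floor of 3 counts. Per kilobase, PKP3 made up over 50% of the plakophilin transcripts in 13 of 17 lines and PKP2 in 4, namely HepG2S1 (51.2%), PancVB (60.1%), PancB1Q (69.0%) and PancB1V (60.5%). Without gene length PKP2 passed 50% in 9 lines. The PKP1 share was highest in HCC4006GR at 9.99%.

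**Figure D3:**
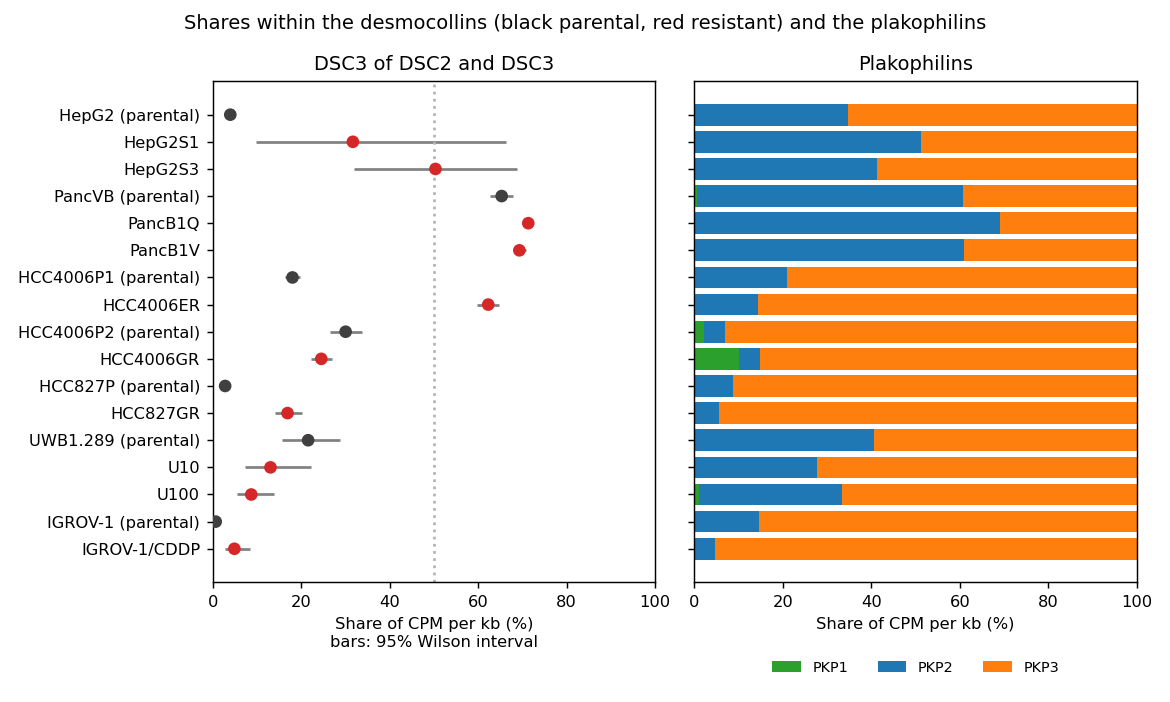
Left, the share of DSC3 in the desmocollin transcripts of each line in percent of CPM per kb, with 95% Wilson intervals (black, parental lines, red, resistant lines, dotted line at 50%). Right, the shares of PKP1, PKP2 and PKP3 in the plakophilin transcripts as stacked bars. DSC3 is over 50% in PancVB and its derivatives, in HCC4006ER and narrowly in HepG2S3. PKP2 is over 50% in PancVB and its derivatives and narrowly in HepG2S1.

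Desmoplakin, encoded by DSP (ENSG00000096696, chr6:7541571-7586947, plus strand), carries the link to keratin, and the study counts DSP among the epithelial genes of the signature it scored in these lines. The direction differed between families. HepG2 had the highest level, 1121 and 1197 CPM. HepG2S1 was close to it at 1028 CPM, but HepG2S3 was 6.96-fold lower, at 167 and 166 CPM. The 2 sorafenib-resistant lines thus parted for DSP, while DSC2 was low in both. HCC4006ER held 86.0 and 74.7 CPM against 337 and 234 in HCC4006P1, and HCC827GR 95.3 against 186 in HCC827P. Higher levels were found in PancB1Q (756 CPM) and PancB1V (658), 6.01-fold and 5.23-fold above PancVB (126), and in HCC4006GR (249.8 against 109 in HCC4006P2). In IGROV-1/CDDP DSP was at 736 CPM against 731 in IGROV-1 (log2 fold change 0.01, counting interval -0.02 to 0.04). In UWB1.289, U10 and U100 it was at 685, 559 and 477 CPM.

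Periplakin, encoded by PPL (ENSG00000118898, chr16:4932508-5010742, minus strand), differed widely in both directions. In HepG2 it was at 42.7 and 33.3 CPM, against 495 in HepG2S1 and 273 and 289.5 in HepG2S3, with log2 fold changes of 3.67 and 2.86. All other pairs had less PPL in the resistant line. HCC4006P1 had the highest level of the series (787 and 629 CPM) and HCC4006ER 133 and 133, 5.33-fold less. The level was 6.93-fold lower in IGROV-1/CDDP (8.74 against 60.6 CPM) and 4.54-fold lower in HCC827GR (4.24 against 19.3 CPM, 66 against 334 counts). In PancB1Q, PancB1V, HCC4006GR, U10 and U100 the log2 fold changes were -0.84, -1.34, -0.82, -0.38 and -0.13. PPL overlaps SEC14L5 on the opposite strand, and EVPL overlaps CDK3 likewise, so their reads are separate only where the counting used strand.

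Envoplakin, the partner of periplakin, was nearly absent from 1 resistant line whose parent had much of it. EVPL (ENSG00000167880, chr17:74000583-74023387, minus strand) had 2112 and 1760 counts in the HCC4006P1 libraries (113 and 90.3 CPM) and 1 and 0 counts in those of HCC4006ER, a 3976-fold lower level with an exact counting interval of 713 to 157070. IGROV-1 and IGROV-1/CDDP had 0 and 2 counts, so no fold is given. In HepG2S1 EVPL was 2.13-fold higher (74.8 CPM against 30.7 and 39.5 in HepG2), and in HepG2S3 it was at 45.4 and 45.0. PancB1Q (20.7 CPM) and PancB1V (20.4) were alike and below PancVB (42.9). HCC4006GR held 38.3 CPM against 79.9 in HCC4006P2, and HCC827GR 20.3 against 39.1 in HCC827P. In the UWB1.289 family it was at 28.6, 32.7 and 23.1 CPM. Per kilobase, EVPL made up 68.0% of the PPL and EVPL transcripts in HCC827P and 83.3% in HCC827GR, the only lines with more EVPL than PPL, and 48.9% in HepG2 against 13.6% and 14.4% in its resistant lines.

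**Figure D4:**
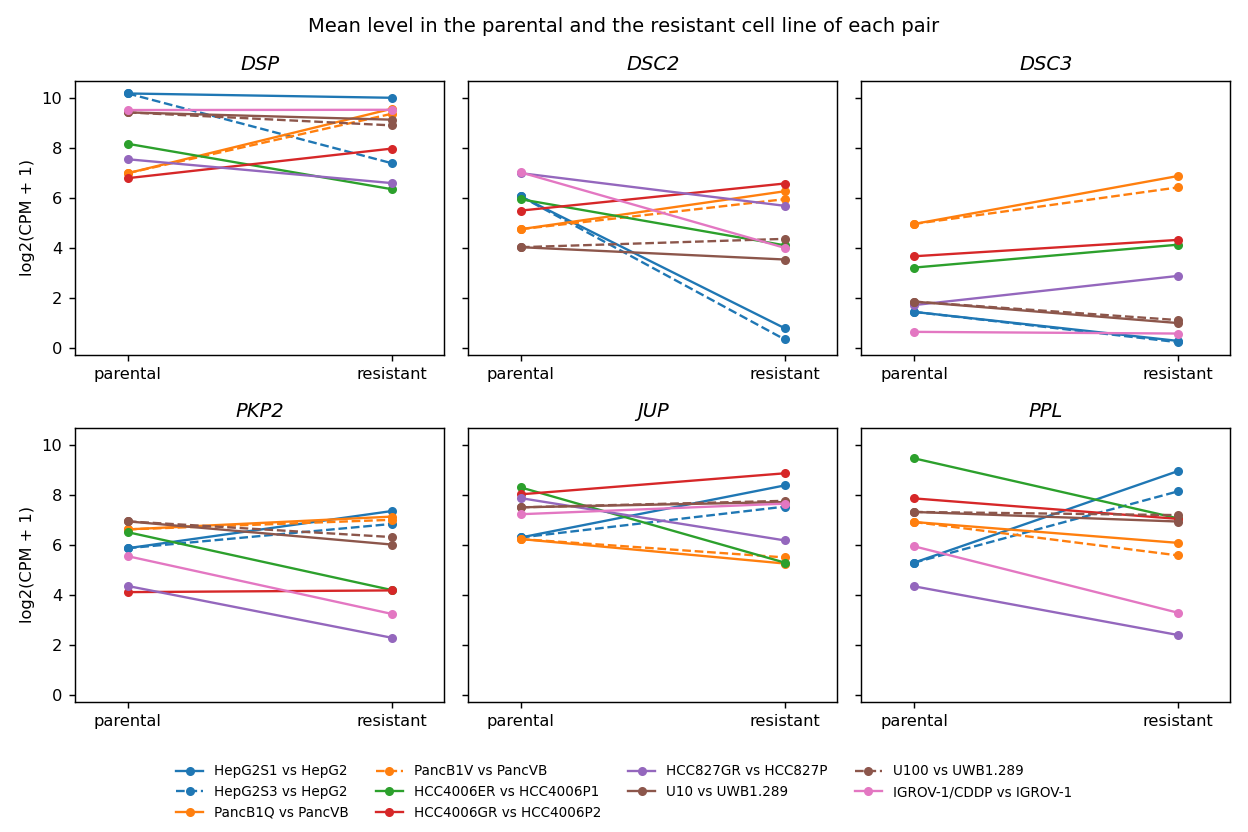
Mean level of 6 genes as log2(CPM + 1) in the parental line (left of each panel) and the resistant line (right) of the 10 pairs, in 1 colour per parent, dashed for the second line of a parent (HepG2S3, PancB1V and U100). DSC2 drops steeply in the HepG2 pairs, PPL is higher only in the HepG2 pairs, and DSP is higher in the PancVB and HCC4006P2 pairs.

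HepG2S3 and HCC4006ER were tested against their parents with edgeR's quasi-likelihood test over all genes, with p-values adjusted over all genes by the Benjamini-Hochberg method and called under 0.05. Fold changes of this test are on the log2 scale of TMM-normalized counts and so differ from those above. In HepG2S3 3 of the 9 members tested were lower and 3 higher, where 32.1% of 16929 genes were called lower and 31.4% higher. The members' shares were thus near those of all genes. DSC2 had the largest change (log2 fold change -8.30, SE 0.35, adjusted p = 6.14e-05), followed by DSC3 (log2 fold change -3.68, SE 0.52, adjusted p = 0.00232) and DSP (log2 fold change -3.11, SE 0.14, adjusted p = 7.31e-05). The higher ones were PPL (log2 fold change 2.57, SE 0.17, adjusted p = 2.14e-04), JUP (log2 fold change 0.93, SE 0.12, adjusted p = 0.00189) and PKP2 (log2 fold change 0.67, SE 0.13, adjusted p = 0.00667). For DSG2, EVPL and PKP3 the adjusted p-values were 0.431, 0.807 and 0.244, and PKP1 had too few counts to be tested. The median over the 9 members was 0.12, against -0.01 over all genes tested. PKP2 lost its call when either HepG2S3 library was left out (adjusted p = 0.0558 and 0.116).

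In HCC4006ER 8 of the 10 members were lower and none was higher, where 10.9% of 15978 genes were called lower and 10.5% higher. All 8 had libraries that did not overlap with those of HCC4006P1. In order of size they were EVPL (log2 fold change -11.61), JUP (-3.01), PPL (-2.38), PKP2 (-2.36), DSG2 (-2.32), DSC2 (-1.86), DSP (-1.78) and PKP3 (-1.69). Their SEs lay between 0.09 and 0.21, apart from 1.18 for EVPL, and their edgeR adjusted p-values between 0.0147 and 0.0294. The size of the EVPL value depends on the count added to its near-empty libraries. DSC3 stood at 1.06 (SE 0.19) with an adjusted p of 0.0501, and PKP1 at -1.58 with 0.313. The median over the 10 members was -2.09, against 0.12 over all genes tested. With the genes missing from HCC4006P1 replicate 1 left out, the same 8 members had edgeR adjusted p-values of 1.48e-05 to 6.35e-04. DSC3 was called higher in that fit (0.00537). Many more genes passed there as well, 6336 of 13743, with 3237 lower and 3099 higher. The 8 calls were lost when either HCC4006ER library was left out, with all genes in the fit. Each such fit had 1 library on a side, and the log2 fold changes of the 8 members stayed negative. Without HCC4006P1 replicate 1, which leaves 1 parental library, they ran from -11.64 for EVPL to -1.72 for DSP.

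**Figure D5:**
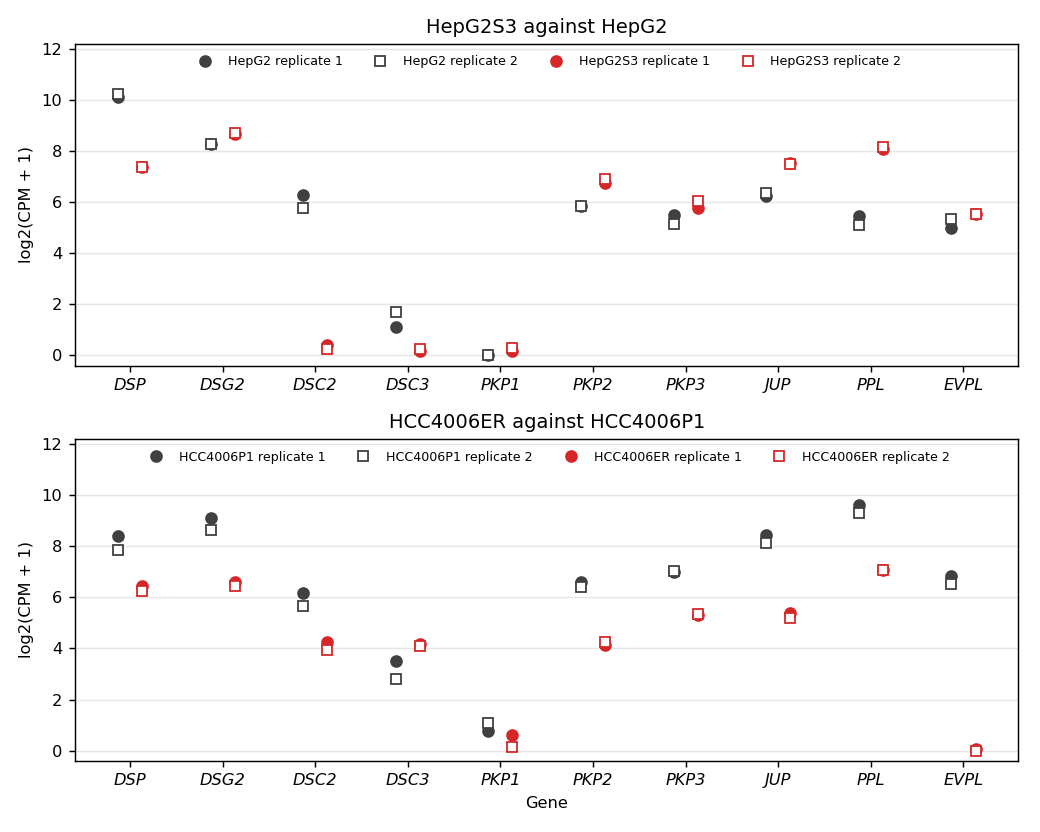
Level of each gene as log2(CPM + 1) in the 2 parental libraries (black) and the 2 resistant libraries (red) of the replicated pairs, filled circles for replicate 1 and open squares for replicate 2. In HCC4006ER both red marks lie below both black marks for 9 genes and above them for DSC3, and in HepG2S3 the marks part most for DSC2, DSP and PPL.

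The changes in the 2 replicated pairs were set against each other by an interaction term over their 8 libraries, a test added after the values were seen. It was past the threshold for 9 of the 10 members, where 41.0% of 18332 genes were called. The 9 members are given one by one among the results for a closer look. DSC2, DSC3 and DSP were lower in HepG2S3 relative to HCC4006ER, while EVPL, PPL, JUP, PKP2, DSG2 and PKP3 were lower in HCC4006ER relative to HepG2S3. For PKP1 the edgeR adjusted p was 0.0548. Without the genes that HCC4006P1 replicate 1 lacks all 10 members passed, where 53.5% of genes were called.

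The 8 pairs with an unreplicated line, of which HepG2S1 has a parent with 2 libraries, were not tested here, and members that differed by 1 or more on the log2 scale are set beside the share of all expressed genes that did. In HepG2S1 2 of 9 members were lower (DSC2 and DSC3) and 4 higher (PPL, JUP, PKP2 and EVPL), where 18.4% of genes were lower and 25.5% higher. In PancB1Q 1 of 9 was lower (EVPL) and 4 higher (DSP, DSC3, DSC2 and DSG2), against 9.41% and 6.1% of genes. In PancB1V 2 of 9 were lower (PPL and EVPL) and 3 higher (DSP, DSC3 and DSC2), against 7.25% and 8.89%. Both PancVB derivatives were compared with the same parental library. In HCC4006GR 1 of 10 was lower (EVPL) and 3 higher (PKP1, DSP and DSC2), against 7.47% and 7.75%. In HCC827GR 5 of 9 were lower (PKP2, PPL, JUP, PKP3 and DSC2) and 1 higher (DSC3), against 7.67% and 10.6%. In U10 none of 9 differed by that much in either direction, where 5.11% of genes were lower and 6.27% higher. In U100 none of 10 was lower and 1 was higher (PKP1), against 1.73% and 6.43%. In IGROV-1/CDDP 3 of 7 were lower (DSC2, PPL and PKP2) and none higher, against 7.21% and 5.55%.

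Over all families no member had a common direction that passed the test. With libraries summed to 1 parental and 1 resistant profile for each of the 7 parents, and the parent as a block, edgeR called 0 of the 10 members and 0 of 20124 genes (0.0%), with 967 genes at an unadjusted p under 0.05. DESeq2 called 113 genes, none of them a member. The fitted log2 fold changes of the members ran from -1.23 for DSC2, with an SE of 1.06, to 1.14 for PKP1, with an SE of 1.03. DSP stood at -0.31 with an SE of 0.60. The median over the members was -0.42, against 0.01 over all genes tested. Deeper libraries weighed more in these sums, so HepG2S3 (32008712 and 30639282 counts on genes) outweighed HepG2S1 (9851195). HCC4006P1 and HCC4006P2 entered as separate parents although both carry the name of 1 line. With these summed as 1 parent, edgeR again called 0 genes.

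Other genes of the junction were read from lists. Over all genes tested, 32.1% were called lower and 31.4% higher in HepG2S3, and 10.9% lower and 10.5% higher in HCC4006ER. Of 7 further desmosomal genes (DSG1, DSG3, DSG4, DSC1, PKP4, PERP and CDSN), PERP, a small membrane protein of desmosomes, was the only one called, lower in HepG2S3 (log2 fold change -1.11, SE 0.33, adjusted p = 0.0314; 3 tested) and lower in HCC4006ER (log2 fold change -0.84, SE 0.09, adjusted p = 0.0245; 2 tested). Of the adherens junction genes all 10 were tested in both pairs. In HepG2S3 8 were lower, with CDH1 (E-cadherin, -8.40), NECTIN4 (-3.78) and AFDN (afadin, -3.18) first, and 2 higher, CDH3 (P-cadherin, 7.21) and VCL (vinculin, 1.66). In HCC4006ER 5 were lower, led by NECTIN4 (-7.86), CDH3 (-5.76) and CDH1 (-5.72), and none higher. The medians of this list were -1.50 and -0.69, against -0.01 and 0.12 over all genes tested. Among 16 cornified envelope genes, 7 were tested in HepG2S3. Of these 4 were higher, with IVL (involucrin, 8.73, SE 0.76), PI3 (4.97, SE 0.40) and CNFN (4.04, SE 0.49) first. The 3 lower ones were CSTA (-10.95, SE 1.94), FLG (filaggrin, -3.55, SE 0.78) and TGM5 (-2.42, SE 0.52), so the size for CSTA is imprecise. In HCC4006ER 4 were tested, of which FLG (6.04, SE 0.45) and CNFN (1.95, SE 0.26) were higher and SCEL (sciellin, -11.42, SE 1.24) lower. Of the other plakins, PLEC (plectin, 1.32) was higher in HepG2S3 and MACF1 (-1.09) and DST (-0.49) were lower, and in HCC4006ER MACF1 (-1.12) was lower. PLEC is among the genes that HCC4006P1 replicate 1 lacks. No gene of these lists was called over the 7 parents.

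Across the 17 lines the 10 genes did not vary as 1 block. Pearson's correlation of each gene's log2(CPM + 1) with the mean of the other 9 standardized genes ran from -0.01 for DSC3 to 0.43 for EVPL. The closest pair was PKP3 and JUP (r = 0.84, Spearman's rho 0.77), then PKP2 and PPL (0.64 and 0.43), and the most opposed DSC3 and JUP (-0.57 and -0.38). DSC2 and DSC3 reached 0.48 by both measures. Among 12904 genes with a median of at least 1 CPM, those whose pattern was most like the mean of the 10 members included OSBPL3 (r = 0.85), COBL (0.83), MISP (0.81) and NAT10 (0.77). COBL is among the genes that HCC4006P1 replicate 1 lacks. These values are descriptions over lines of which several share a parent and which differ in depth and, for the HepG2 lines, in medium, so no p-value is attached.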

How the data were processed

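Polyadenylated RNA of cultured lines was sequenced. Per the labels, the authors prepared stranded libraries (KAPA kit), aligned reads with TopHat and Bowtie and counted them per gene with HTSeq and SAMtools, and the submitters' processing notes name hg19 as the genome build. The methods also name a 3′ kit with STAR for some libraries, without saying which. The deposited values are raw counts per Ensembl gene in 1 file per library, and whether counting used strand is not given in the sources used here. Reads counted on no gene (28.0 to 42.8% of a file's total) were left out. Of the 53515 genes, 45100 (84.3%) matched the GENCODE annotation on GRCh37, which gave symbols, positions and exon lengths. The length of a gene is the union of all its annotated exons.

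From these counts, CPM, log2(CPM + 1) with a pseudocount of 1, Wilson intervals and shares per kilobase were computed (Python 3.11.15, pandas 2.3.3, scipy 1.17.1). Intervals and floors cover counting error only, since reads without molecular identifiers are not independent molecules. Tests used edgeR 4.0.16 (filterByExpr, TMM, quasi-likelihood, Benjamini-Hochberg at 0.05) in R 4.3.3 and were tested on simulated data. Only the libraries compared entered each fit. DESeq2 1.42.0, no filter, no TMM, the replicate number as a block, a fit of all 17 lines, left-out libraries or parents, left-out genes, other pseudocounts and scalings were alternatives. Members and gene lists were chosen with earlier results of these data known. Named are all members, up to 3 called genes a list and direction, and the 5 genes most like the members' mean, of which 1 is not reported here. Replicate libraries differed by more than sampling noise (chi-square per degree of freedom 5.85 to 282, the highest in HCC4006P1, which came to 37.3 without the genes its replicate 1 lacks), so each was counted. Promoter windows came from RefSeq. In all libraries longer genes had more CPM (Spearman's rho 0.317 to 0.393). EPPK1, a further plakin, was not matched and not analysed here.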

Additional observations from a re-analysis of the deposited data

Results flagged for a closer look

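For 9 members the change in HCC4006ER differed from the change in HepG2S3 by edgeR's interaction test over the 8 libraries of both pairs, which was added after the values were seen and called 41.0% of all genes tested. The difference, HCC4006ER minus HepG2S3 on the log2 scale, was positive for the desmocollins and desmoplakin, which were lower in HepG2S3. It was 6.45 for DSC2 (SE 0.42, adjusted p = 3.70e-04), 4.76 for DSC3 (SE 0.56, adjusted p = 0.00215) and 1.35 for DSP (SE 0.17, adjusted p = 0.00265). DSC2 and DSP were lower in both resistant lines, in 4 of 4 resistant libraries, but by more in HepG2S3, whereas DSC3 was lower in both HepG2S3 libraries and higher in both HCC4006ER libraries. The edgeR difference was negative for the plaque partners. It came to -11.70 for EVPL (SE 0.81, adjusted p = 4.52e-04), -4.93 for PPL (SE 0.21, adjusted p = 1.48e-04) and -3.92 for JUP (SE 0.17, adjusted p = 1.48e-04). PPL and JUP were higher in both HepG2S3 libraries and lower in both HCC4006ER libraries than in any library of their parents. For the remaining genes the edgeR difference was -3.00 for PKP2 (SE 0.19, adjusted p = 3.70e-04), -2.42 for DSG2 (SE 0.15, adjusted p = 3.29e-04) and -1.95 for PKP3 (SE 0.30, adjusted p = 0.00537). With the genes that HCC4006P1 replicate 1 lacks left out of the fit, the edgeR adjusted p-values of these 9 were 3.11e-07 to 4.67e-04, and PKP1 also passed (0.0174), with 53.5% of all genes called in that fit. Liver, fibroblast, duct and leukocyte markers moved in HepG2S3, and fibroblast and duct markers in HCC4006ER, by the amounts given above. The summed duct genes were higher in HepG2S3 and lower in HCC4006ER than in the parent. The part of these markers in the differences was not tested.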

How the results depend on the processing

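In HepG2S3 against HepG2 the main fit called 10744 of 16929 genes. Without TMM factors 8 members were called, and 11066 of 16929 genes. DESeq2 called the same members as the main fit, and 10514 of 21558 genes. PKP2 lost its call without either HepG2S3 library, as given above. In HCC4006ER against HCC4006P1 the number of genes called moved from 3417 to 7165 with DESeq2, 2160 without a filter on low counts, 1457 without TMM factors and 6336 without the genes that HCC4006P1 replicate 1 lacks. Leaving out 1 library at a time gave 0 to 11091 genes and 0 to 10 members, 0 of each without either HCC4006ER library and the most genes without HCC4006P1 replicate 2. Adding a replicate block to the HCC4006ER fit gave 0 genes and 0 members (edgeR adjusted p of the 8 members 0.107 to 0.115). The block together with leaving out the missing genes gave 7724 of 13743 genes and 9 members. The labels tie the numbers to no shared batch, so the libraries were not paired. Same-numbered deviations correlated at 0.05 in the HepG2 and 0.09 in the HCC4006 libraries, or 0.31 in the latter without the missing genes. The block left 6 members called in HepG2S3, where 10561 of 16929 genes were called. Over the 7 parents DESeq2 called 113 genes and no member. DSG2 in HepG2S1 turned to -0.14 with TMM-scaled library sizes. PKP2 passed 50% of the plakophilins in 9 lines without gene length. Of the other values of members in a pair, 340 stayed within the spread between replicates or the counting interval and 42 moved beyond it, 29 of them under TMM scaling, where PKP3 in PancB1Q, within counting error at -0.03, turned to 0.17. Of the tests of single members, 115 kept a call, 27 lost it, 9 gained one and 160 had none in either fit, and the cause was not tested. Depth limits statements on PKP1, and on DSC3 outside the pancreatic and HCC4006 lines, which rest on few counts. For DSC3 this includes HCC827P (39 counts) and HCC827GR (98 counts).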

Other observations

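The 2 parental stocks of HCC4006 differed in these genes although both carry the name of 1 line. HCC4006P1 and HCC4006P2 held 708 and 232 CPM of PPL, 286 and 109 CPM of DSP and 0.911 and 4.63 CPM of PKP1. PKP3 was at 127 and 118 CPM. HCC4006P2 has 1 library, and the difference was not tested. The cornified envelope gene IVL and the adherens junction gene CDH3 were higher in HepG2S3 (edgeR log2 fold change 8.73 and 7.21), where PPL was higher as well, while CDH1 was lower (-8.40). Of the other cornified envelope genes tested there, CSTA (-10.95, SE 1.94), FLG (-3.55) and TGM5 (-2.42) were lower.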
